A study of Mus musculus with 11 samples.

Results

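Platelet-derived growth factor (PDGF) genes and pericyte markers were examined in cultured mesenchymal cells of the fetal mouse lung. The genes were taken by symbol from the count files. They are the receptors Pdgfra and Pdgfrb, the ligands Pdgfa, Pdgfb, Pdgfc and Pdgfd, and the pericyte markers Cspg4, Rgs5, Kcnj8 and Mcam. All 10 were found among the 24062 genes of the files and all 10 were tested, although Kcnj8 passed the filter on low counts only through the Sp3-/- libraries. The 11 libraries came from primary E15 lung mesenchymal cells, 4 of them Sp3+/+ (WT), 4 Sp3+/- and 3 Sp3-/-. Sp3 encodes a transcription factor that binds GC-rich promoter elements. Cells of all 3 genotypes had been selected by adhesion to plastic and passaged in culture, and none of the labels names a treatment. Strain and sex are not given in the sources used here, nor is it stated that each library came from its own embryo, so that p-values measure only the spread between these libraries, which may be technical.

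PDGF ligands are dimers that bring together pairs of receptor tyrosine kinases at the cell surface. In the developing lung, epithelial Pdgfa signals to mesenchymal cells carrying Pdgfra, the precursors of alveolar myofibroblasts. In blood vessels, endothelial Pdgfb signals to Pdgfrb on pericytes, the mural cells that wrap capillaries, and recruits them to the growing vessel. Pdgfc and Pdgfd are secreted with a CUB domain that proteases must remove before they can bind a receptor.

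Reads on genes numbered from 9849111 to 59297495 per library, with a median of 34968482. Levels are given as CPM, read counts scaled to the TMM-normalized size of the library, or as log2 CPM. Fold changes were tested with edgeR (quasi-likelihood) and called at an adjusted p below 0.05, the Benjamini-Hochberg adjustment running over all genes. Library titles carry a suffix (none, 2 or 3) that is explained neither in the labels nor in the methods. No Sp3-/- library has a suffix, whereas 3 of 4 WT libraries have suffix 3 and only WT 468-4 has none. Of the Sp3+/- libraries, 697-4 has none in its title but suffix 2 in the name of its file. Suffix and genotype thus almost coincide, and each comparison was also fitted to the 11 libraries with a term for suffix. Sp3 itself stood at 60.7 to 107 CPM in WT, 51.8 to 71.6 CPM in Sp3+/- and 14.4 to 18.9 CPM in Sp3-/- libraries, so that the Sp3-/- libraries stood apart while those of WT and Sp3+/- overlapped.

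In Sp3-/- cells 6 of the 10 genes differed from WT, Pdgfb and Pdgfc being higher and Pdgfrb, Pdgfd, Rgs5 and Mcam lower. Of all 14025 genes tested, 18.5% were called, 8.76% higher and 9.77% lower. The median log2 fold change was -1.01 over the 10 genes and 0.00 over all genes. For 7 of the 10 the WT and Sp3-/- libraries did not overlap, as was so for 31.3% of all genes. With suffix as a covariate 4 of 10 remained called (Pdgfrb, Pdgfb, Pdgfd and Mcam), against 9.41% of all genes. For each of the 6 called genes the WT and Sp3-/- libraries did not overlap. Each therefore had to keep its direction between libraries that share the first number of their title, which adds no support. Both WT and Sp3-/- libraries exist for 685 (1 of each) and 697 (2 of each), but not for 468. Within both numbers every WT library has suffix 3 and every Sp3-/- library has none. These differences therefore cannot separate genotype from suffix. The differences in log2 CPM were -1.84 and -2.97 for Mcam, 2.10 and 2.82 for Pdgfb, -1.01 and -1.22 for Pdgfd, -1.68 and -2.02 for Rgs5, and 0.97 and 0.64 for Pdgfc.

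**Figure D1:**
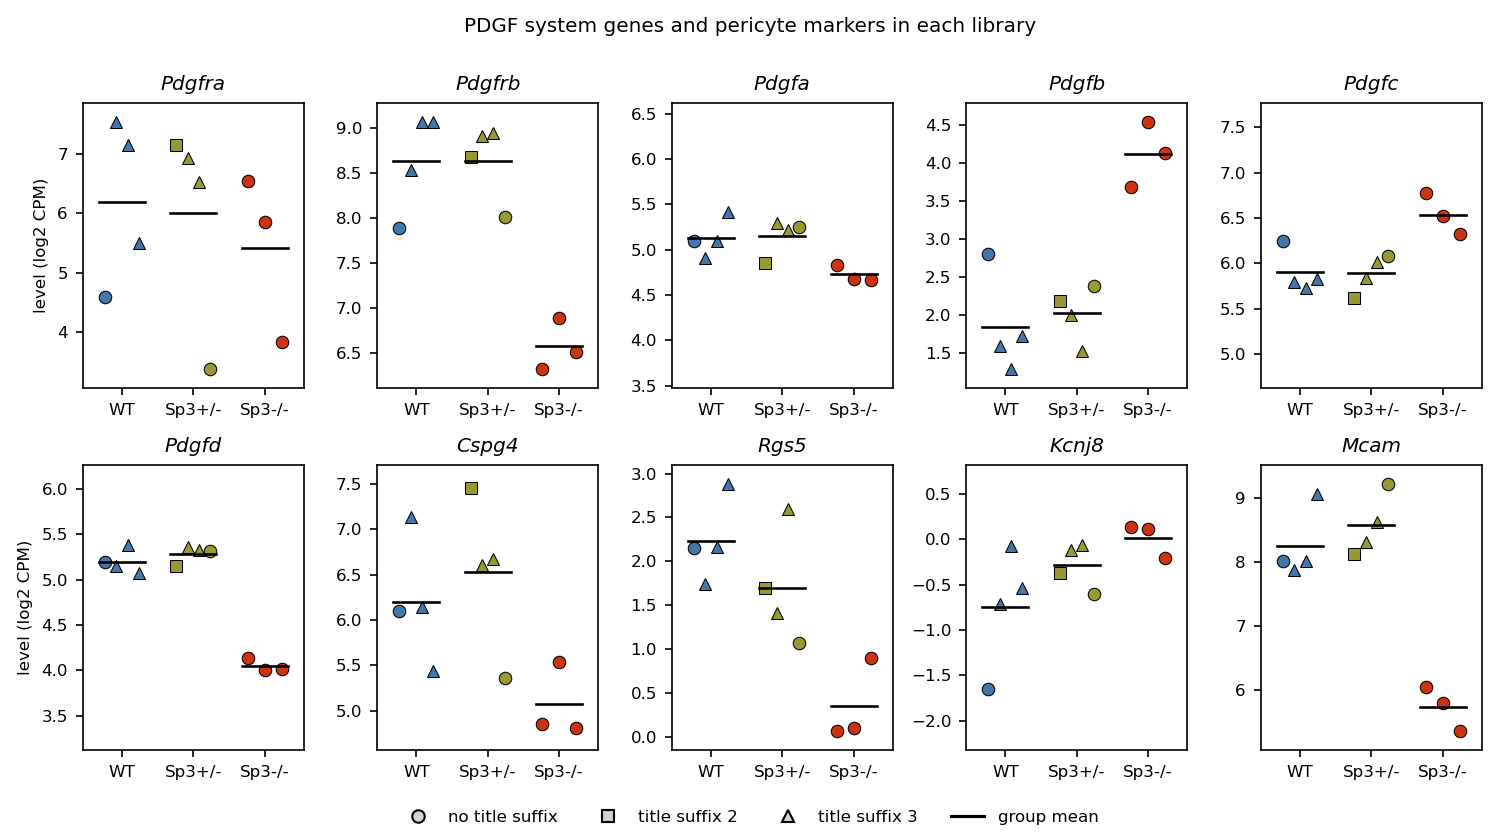
Level of each gene in each library (y axis, log2 CPM, with a range of its own in each panel) by genotype (x axis); marker shapes give the title suffix and bars the group mean. The 3 Sp3-/- libraries lie outside the range of the WT and Sp3+/- libraries for Pdgfrb, Pdgfa, Pdgfb, Pdgfc, Pdgfd, Rgs5 and Mcam. The margin is narrow for Pdgfa (4.83 in Sp3-/- 685-1, 4.85 in Sp3+/- 468-3) and Pdgfc (6.32 in Sp3-/- 697-5, 6.25 in WT 468-4). Pdgfra spreads widely in every genotype.

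Pdgfrb (chromosome 18, 61045127 to 61085067, GRCm38.p6), the receptor of pericytes and other mural cells, was lower in Sp3-/- cells. Its level was 238 CPM in WT 468-4, 369 CPM in 685-2, 538.5 CPM in 697-1 and 538 CPM in 697-3. The Sp3-/- libraries 685-1, 697-2 and 697-5 held 79.8, 118 and 91.2 CPM. Every Sp3-/- library was thus below every WT library, including WT 468-4, which shares their lack of a suffix. Pdgfrb fell 4.37-fold (log2 fold change -2.13 ± 0.32 (SE), edgeR adjusted p = 0.0114). With suffix as a covariate the log2 fold change was -1.35 ± 0.20 (adjusted p = 0.0098). Within a first title number the difference in log2 CPM was -2.21 for 685 and -2.37 for 697.

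Pdgfra (chromosome 5, 75151322 to 75198206), the receptor of alveolar myofibroblast precursors, gave no such separation. WT libraries 468-4, 685-2, 697-1 and 697-3 held 24.1, 186, 142 and 45.6 CPM. The Sp3-/- libraries 685-1, 697-2 and 697-5 held 93.7, 58.1 and 14.2 CPM. Levels overlapped and spread within each genotype by more than the genotypes differed, with an SD of 1.38 log2 CPM in WT (n = 4) and 1.41 in Sp3-/- libraries (n = 3). The log2 fold change was -0.85 ± 0.82 (95% interval -2.76 to 1.06, edgeR adjusted p = 0.4779), so that neither a decrease nor an increase of 2-fold was outside the interval. The direction turned with suffix as a covariate, to 1.50 ± 0.80 (adjusted p = 0.2488). The Sp3-carrying libraries without a suffix in the title, WT 468-4 and Sp3+/- 697-4, were the lowest of their genotypes, at 24.1 and 10.4 CPM.

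Per kb of transcript, Pdgfrb exceeded Pdgfra in all 11 libraries. The log2 ratio of Pdgfra to Pdgfrb was -3.59, -1.28, -2.21 and -3.85 in WT and -0.06, -1.31 and -2.97 in Sp3-/- libraries. Only in Sp3-/- 685-1 were the receptors close to parity, and the ranges of the genotypes overlapped. Over the 11 libraries, and among 11196 genes, the centred log2 CPM of Pdgfrb was most closely followed by that of Foxp2, C1qtnf6 and Tnc, each with a root mean square difference of 0.18. The nearest genes to Pdgfra were Capn6 (0.47), Gpc3 (0.49) and Lama4 (0.56), on the same scale. These are descriptions over libraries that share genotype and suffix.

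Among ligands, Pdgfb and Pdgfd moved in opposite directions. Pdgfb (chromosome 15, 79995865 to 80024614), the ligand that recruits pericytes to endothelium, was low in WT, at 6.91, 2.94, 2.39 and 3.23 CPM in 468-4, 685-2, 697-1 and 697-3. It reached 12.8, 23.1 and 17.4 CPM in Sp3-/- 685-1, 697-2 and 697-5. The highest WT value, in the library without a suffix, was below the lowest Sp3-/- value. Pdgfb rose 4.56-fold (log2 fold change 2.19 ± 0.39, edgeR adjusted p = 0.0161), and with suffix as a covariate the log2 fold change was 1.56 ± 0.32 (adjusted p = 0.0231). Without Sp3-/- 697-2 the log2 fold change was 1.96 and no longer passed the threshold (adjusted p = 0.0659), and likewise without WT 697-3 (2.11, adjusted p = 0.0523).

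Pdgfd (chromosome 9, 6168363 to 6534284), which acts mainly through Pdgfrb, had the tightest levels of the 10 genes. WT libraries held 36.5, 35.4, 41.6 and 33.5 CPM, and Sp3-/- libraries 17.5, 16.0 and 16.0 CPM. The gap between the genotypes was wider than the spread within either. Pdgfd fell 2.23-fold (log2 fold change -1.16 ± 0.11, edgeR adjusted p = 0.0061). The value was -1.15 ± 0.12 with suffix as a covariate (adjusted p = 0.0040) and lay between -1.21 and -1.09 whichever library was left out, each time with a call.

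Pdgfc (chromosome 3, 81036416 to 81214040), a ligand of Pdgfra, held 76.0, 55.4, 53.1 and 56.9 CPM in WT libraries and 109, 91.6 and 80.0 CPM in Sp3-/- libraries. The genotypes did not overlap, but WT 468-4, without a suffix, came close to Sp3-/- 697-5. Pdgfc rose 1.54-fold (log2 fold change 0.63 ± 0.15, edgeR adjusted p = 0.0316). It was not called with suffix as a covariate (0.39 ± 0.14, adjusted p = 0.1079), nor in 5 of the 7 fits that left out 1 library (without 685-1, 685-2, 697-1, 697-2 or 697-3, with an adjusted p up to 0.0997).

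Pdgfa (chromosome 5, 138976014 to 139000792), the other main ligand of Pdgfra, held 34.3, 30.0, 34.3 and 42.7 CPM in WT and 28.5, 25.5 and 25.4 CPM in Sp3-/- libraries. All Sp3-/- values lay below all WT values, by a small margin. The log2 fold change of -0.42 ± 0.13 did not pass the threshold (edgeR adjusted p = 0.0597). Pdgfa was called in 3 of 12 other analyses, by DESeq2 (adjusted p = 0.0296), with upper quartile scaling (0.0422) and in an edgeR fit of all 11 libraries (0.0370), and in 0 of the 7 fits that left out 1 library.

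The make-up of the ligand transcripts differed accordingly. Of the summed CPM per kb of the 4 ligands, Pdgfb made up 2.0 to 4.9% in WT and 8.3 to 16.0% in Sp3-/- libraries. Pdgfd made up 20.5 to 27.4% in WT and 8.8 to 9.9% in Sp3-/- libraries. The share of Pdgfc was 38.2 to 46.8% and 54.0 to 61.5%, and that of Pdgfa 27.8 to 38.2% and 20.2 to 22.6%, in WT and Sp3-/- libraries. None of the 4 shares overlapped between these genotypes, whereas the sum did, at 36.5 to 45.5 CPM per kb in WT and 41.4 to 49.5 CPM per kb in Sp3-/- libraries. The shares are descriptions without a test and depend on the transcript lengths used.

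**Figure D2:**
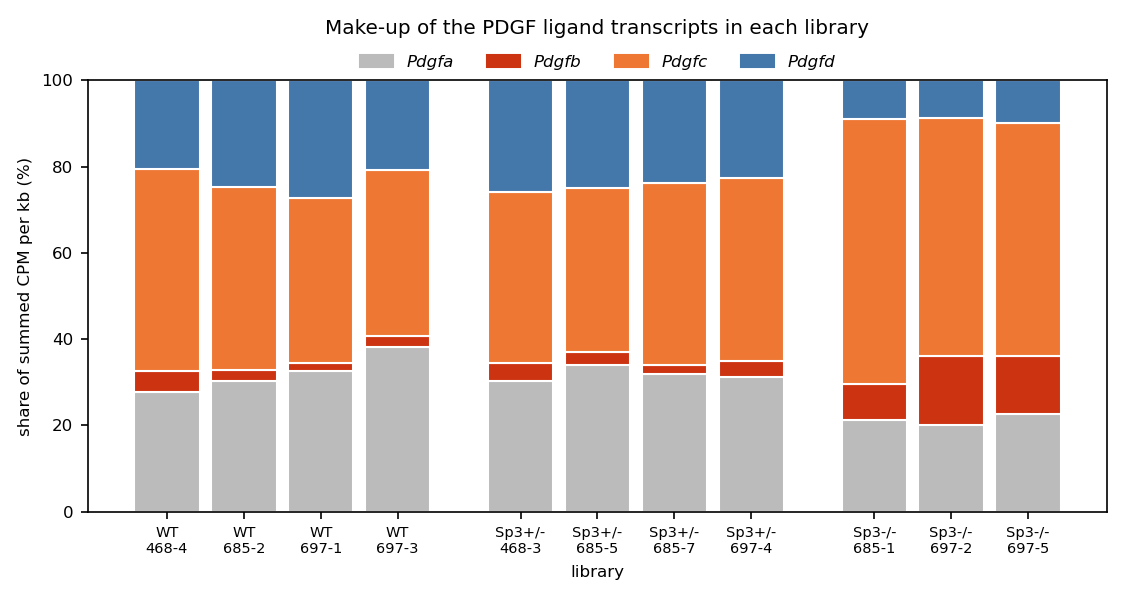
Share of each PDGF ligand in the summed CPM per kb of the 4 ligands (y axis, %) in each library (x axis, grouped by genotype). In the Sp3-/- libraries the Pdgfd segment is 8.8 to 9.9% and the Pdgfb segment 8.3 to 16.0%, while in WT they are 20.5 to 27.4% and 2.0 to 4.9%.

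Of the pericyte markers, Mcam and Rgs5 fell, whereas Cspg4 and Kcnj8 did not pass the test. Mcam (chromosome 9, 44134658 to 44142727) encodes CD146, an adhesion molecule of pericytes that smooth muscle and endothelium also carry. Its level was 258 CPM in WT 468-4, 235 CPM in 685-2, 260 CPM in 697-1 and 538 CPM in 697-3. Sp3-/- libraries 685-1, 697-2 and 697-5 held 65.5, 55.5 and 40.8 CPM. Mcam fell 6.0-fold (log2 fold change -2.58 ± 0.35, edgeR adjusted p = 0.0093), the largest change of the 10 genes in this comparison. The value with suffix as a covariate was -2.74 ± 0.44 (adjusted p = 0.0127), and the gene was called whichever library was left out.

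Rgs5 (chromosome 1, 169655501 to 169695813), a regulator of G protein signaling and one of the more specific markers of pericytes, was scarce. WT libraries held 4.38, 3.28, 4.45 and 7.29 CPM and Sp3-/- libraries 0.981, 1.01 and 1.80 CPM, the latter on 18 to 45 reads. No Sp3-/- library reached the lowest WT library. Rgs5 fell 4.01-fold (log2 fold change -2.0 ± 0.38, edgeR adjusted p = 0.0177). The call was lost with suffix as a covariate (-1.63 ± 0.52, adjusted p = 0.0814) and without Sp3-/- 697-2 (-1.85, adjusted p = 0.0804). Chsy3 (0.30), Epha4 (0.34) and Mdga1 (0.36) had the smallest root mean square differences from Rgs5 in centred log2 CPM over the 11 libraries.

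Cspg4 (chromosome 9, 56865104 to 56899870) encodes NG2, a membrane proteoglycan of pericytes. WT libraries held 68.8, 140, 70.5 and 43.5 CPM and Sp3-/- libraries 28.7, 46.4 and 27.9 CPM. Sp3-/- 697-2 was above WT 697-3, so that the genotypes overlapped. The log2 fold change was -1.23 ± 0.40 (95% interval -2.17 to -0.29) and missed the threshold (edgeR adjusted p = 0.0698). DESeq2 called it on the same counts (adjusted p = 0.0101), and with suffix as a covariate the value was -0.71 ± 0.47 (edgeR adjusted p = 0.3514).

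Kcnj8 (chromosome 6, 142564837 to 142571614), the pore subunit of the ATP-sensitive potassium channel of pericytes, was near the limit of detection with 8 to 50 reads per library. WT libraries held 0.253, 0.547, 0.890 and 0.622 CPM and Sp3-/- libraries 1.04, 1.01 and 0.801 CPM. The log2 fold change of 0.74 ± 0.45 did not pass the test (edgeR adjusted p = 0.2637), and its 95% interval ran from -0.30 to 1.78. The suffix covariate moved the value to 1.54 ± 0.41 (edgeR adjusted p = 0.0504). Kcnj8 passed the filter on low counts only through the Sp3-/- genotype, so neither fit can serve as a test of a rise there.

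Sp3 recognises the GC box, and the promoters of 2 markers that carry it are shown beside 2 without it. RefSeq promoter windows on GRCm38.p6, reaching from 250 bases before to 50 after the start of transcription, were found for 8 of the 10 genes, and Pdgfrb and Pdgfb had no entry. GGGCGG on either strand (CCGCCC on the other) occurred 5 times in the Mcam window, its first bases lying at -112, -89, -72, -62 and -38 from the start. It occurred 2 times in that of Cspg4 and in 1 of the 2 windows of Pdgfa (once in the other). It was not in the windows of Pdgfra, Pdgfc, Pdgfd, Rgs5 and Kcnj8. The windows of Pdgfra and Pdgfa lie inside the gene bounds given above, so that the outermost starts of these genes were not searched. Of 32851 windows, 35.7% held at least 1 match, 19.5% at least 2 and 2.71% at least 5. Against WT, Mcam, with 5 matches, and Rgs5 and Pdgfd, with none, fell in Sp3-/- cells, while Pdgfc, with none, rose. Cspg4 and Pdgfa, with matches, and Pdgfra and Kcnj8, with none, were not called. A relation between matches and change was not tested. A match of these letters is a description and not a measured binding site. The 250 bases before the start follow, 5′ to 3′ on the strand of the gene, the plus strand for all 4, with GC boxes in capitals.
Mcam, chr9:44134408-44134657: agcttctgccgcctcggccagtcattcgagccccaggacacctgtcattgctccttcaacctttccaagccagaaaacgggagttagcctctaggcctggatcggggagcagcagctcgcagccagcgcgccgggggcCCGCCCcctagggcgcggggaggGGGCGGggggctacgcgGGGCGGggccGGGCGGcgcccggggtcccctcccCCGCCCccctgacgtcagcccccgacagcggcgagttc
Cspg4, chr9:56864854-56865103: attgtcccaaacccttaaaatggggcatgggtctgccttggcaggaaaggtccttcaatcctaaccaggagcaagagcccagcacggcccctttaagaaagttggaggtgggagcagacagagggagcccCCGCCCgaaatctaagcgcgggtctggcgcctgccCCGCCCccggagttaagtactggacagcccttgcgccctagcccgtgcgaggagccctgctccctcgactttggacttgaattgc
Rgs5, chr1:169655251-169655500: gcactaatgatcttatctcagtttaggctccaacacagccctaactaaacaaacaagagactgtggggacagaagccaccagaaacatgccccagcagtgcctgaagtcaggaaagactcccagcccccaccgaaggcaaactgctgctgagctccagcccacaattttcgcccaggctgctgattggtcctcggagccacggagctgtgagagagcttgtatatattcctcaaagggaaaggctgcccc
Pdgfc, chr3:81036166-81036415: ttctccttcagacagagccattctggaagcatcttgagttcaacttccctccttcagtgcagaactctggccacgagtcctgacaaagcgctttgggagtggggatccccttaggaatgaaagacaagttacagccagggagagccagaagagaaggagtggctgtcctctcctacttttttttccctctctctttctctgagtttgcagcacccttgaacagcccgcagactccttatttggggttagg

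Between genes, levels were compared per kb of the canonical transcript. In WT the median was highest for Pdgfrb (83.9 CPM per kb) and Mcam (77.4 CPM per kb), whose ranges overlapped and whose order turned when all annotated exons were used for the length (56.0 and 71.7 CPM per kb). Pdgfc (15.7), Pdgfra (14.3), Pdgfa (12.6), Pdgfd (9.19) and Cspg4 (8.54) followed, each overlapping its neighbour in the range over libraries except for Pdgfa and Pdgfd. Rgs5 (1.07) and Pdgfb (0.990) overlapped too, and Kcnj8 was lowest at 0.192 CPM per kb. In Sp3-/- libraries Pdgfc had the highest median, 25.6 CPM per kb, above Pdgfrb (16.9) and Mcam (16.6), and its lowest library (22.4) was above the highest of these genes (21.9 and 19.6 CPM per kb). Pdgfb, at 5.59 CPM per kb, was above Pdgfd, at 4.09, in the Sp3-/- medians, although their ranges overlapped. With all annotated exons as the length Mcam had the highest Sp3-/- median (15.4 CPM per kb), above Pdgfc (13.7) and Pdgfrb (11.3).

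**Figure D3:**
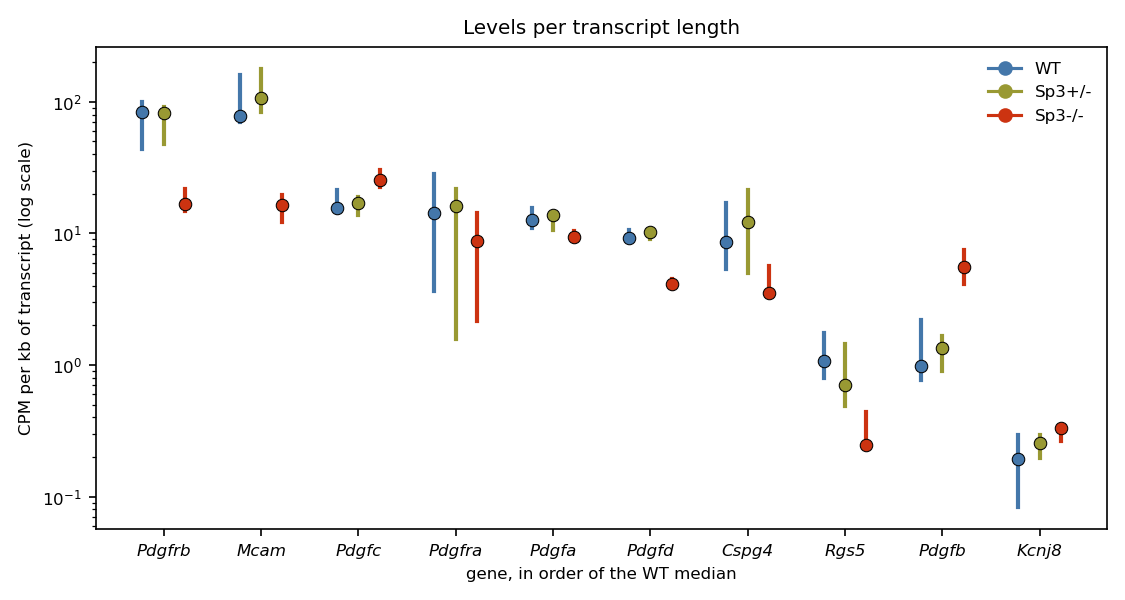
CPM per kb of canonical transcript (y axis, log scale) for each gene (x axis, in order of the WT median); points are medians and lines reach from the lowest to the highest library of a genotype. Pdgfrb and Mcam lead in WT and Sp3+/- libraries, while Pdgfc leads in Sp3-/- libraries at a median of 25.6.

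Loss of a single allele was accompanied by no call. In Sp3+/- against WT, 0 of the 10 genes and 0 of 14130 genes (0.00%) were called by edgeR, nor were any by DESeq2 or limma-voom, and 0 of the 10 and 246 of all genes had an unadjusted p below 0.05. The 95% interval of the log2 fold change was narrow for Pdgfd (-0.11 to 0.26), Pdgfa (-0.26 to 0.28) and Pdgfc (-0.34 to 0.29), which excludes a 2-fold change of these ligands at the depth and spread of these libraries. It was -0.65 to 0.56 for Pdgfrb, -0.70 to 0.81 for Pdgfb and -0.38 to 0.97 for Mcam. For Pdgfra (-1.93 to 1.69), Rgs5 (-1.31 to 0.32), Cspg4 (-0.60 to 1.32) and Kcnj8 (-0.37 to 1.21) it reached past a 2-fold change. Pdgfrb stood at 410, 479, 496 and 257 CPM in Sp3+/- 468-3, 685-5, 685-7 and 697-4, and Mcam at 280.3, 320.1, 394 and 595 CPM. The other receptor, Pdgfra, ranged from 10.4 to 143 CPM in Sp3+/- libraries. Ligand levels there were 28.7 to 39.0 CPM for Pdgfa, 2.82 to 5.16 CPM for Pdgfb, 49.1 to 67.8 CPM for Pdgfc and 35.4 to 40.9 CPM for Pdgfd. Cspg4 lay between 41.1 and 176 CPM, Rgs5 between 2.03 and 5.99 CPM and Kcnj8 between 0.595 and 0.894 CPM. All of these ranges overlapped those of WT.

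Against Sp3+/- cells, 8 of the 10 genes were called in Sp3-/- cells, against 25.5% of all genes. These comparisons share the Sp3-/- libraries with those against WT. The log2 fold changes were -2.88 ± 0.37 for Mcam, -2.09 ± 0.32 for Pdgfrb, 2.12 ± 0.37 for Pdgfb and -1.24 ± 0.09 for Pdgfd. Those of Rgs5 (-1.52 ± 0.44), Cspg4 (-1.60 ± 0.49), Pdgfc (0.65 ± 0.15) and Pdgfa (-0.43 ± 0.13) were called too, with edgeR adjusted p-values of 0.0300, 0.0379, 0.0143 and 0.0371. With suffix as a covariate 4 of the 10 remained called, the same genes as against WT, and 5.40% of all genes.

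**Figure D4:**
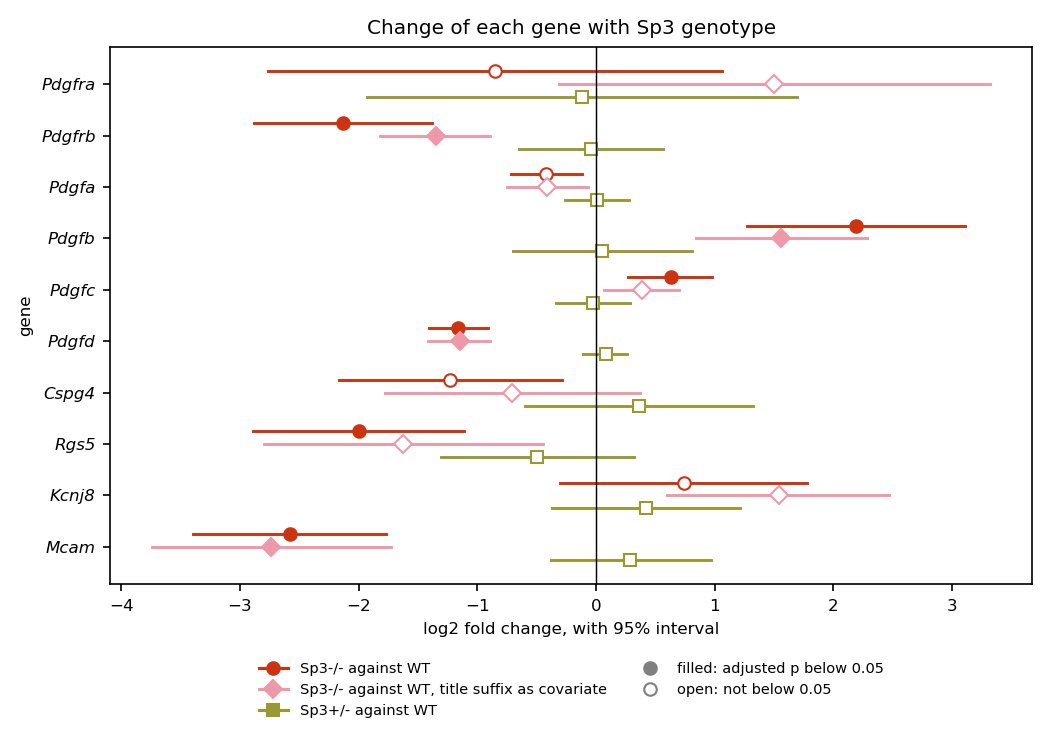
Log2 fold change with its 95% interval (x axis) of each gene (y axis) in Sp3-/- against WT, in the same comparison with title suffix as a covariate, and in Sp3+/- against WT; filled symbols have an adjusted p below 0.05. Intervals of Sp3+/- against WT all include 0, and Pdgfra lies at -0.85 and at 1.50 in the fits without and with the covariate.

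Other genes of the pathway were described as lists. Of 8 genes that process the ligands or act as co-receptors, 0 were called by edgeR, 1 by DESeq2 and 1 by edgeR with suffix as a covariate, and 2 had an unadjusted p below 0.05. Their median log2 fold change was 0.06. Of 28 adaptors and effectors, 3 were higher (Pik3cb 0.70, Stat5b 0.60, Rasa1 0.48) and 1 lower (Plcg1, -0.61), with a median of 0.03. This is 14.3% of the list, against 18.5% of all genes. In the suffix fit Stat5b remained higher (0.50, adjusted p = 0.0340), whereas Pik3cb, Rasa1 and Plcg1 were not called (adjusted p = 0.1127, 0.0620 and 0.3344). Of 12 attenuators of receptor signaling 6 were higher and 1 lower (58.3%), with a median of 0.72. They include Spry4 (log2 fold change 1.39 ± 0.26, edgeR adjusted p = 0.0166) and Dusp6 (1.30 ± 0.23, adjusted p = 0.0151), an inhibitor and a phosphatase that restrain ERK signaling, and Ptprj (1.03 ± 0.17, adjusted p = 0.0141), a phosphatase of receptor tyrosine kinases. Lrig1 was lower (-0.61 ± 0.10, adjusted p = 0.0125). In the suffix fit 2 attenuators remained higher, Spry4 (1.08) and Dusp6 (1.06), and Lrig1 lower (-0.46). Of 13 early response genes, Fos was higher (1.11) and Myc lower (-0.64), or 15.4% of the list. With suffix as a covariate Myc remained lower (-0.98, adjusted p = 0.0103) and Fos was not called (0.71, adjusted p = 0.1096).

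Further pericyte and mural markers did not move in a single direction. Of 16 listed genes 12 could be tested, 2 being higher and 3 lower, with a median log2 fold change of -0.13. The transcription factor Ebf1 (-1.86 ± 0.38, edgeR adjusted p = 0.0219), Notch3, the Notch receptor of mural cells (-1.0 ± 0.16, adjusted p = 0.0121), and Cd248 or endosialin (-0.85 ± 0.13, adjusted p = 0.0114) were lower, with and without suffix as a covariate. The aminopeptidase Anpep (2.30 ± 0.62, adjusted p = 0.0423) and Gucy1a3, a subunit of soluble guanylate cyclase (1.64 ± 0.26, adjusted p = 0.0129), were higher. Of the latter pair Gucy1a3 remained called in the suffix fit (2.29, adjusted p = 0.0057) and Anpep did not (1.14, adjusted p = 0.1799). Vtn was at 0 reads in every library, and the mean of Higd1b, Cox4i2, Ndufa4l2 and Heyl was below 1 CPM, so that 5 of the listed markers were at or near 0. Rgs5 and Kcnj8, more specific to pericytes than Pdgfrb and Mcam, were at most at 1.07 CPM per kb in the WT median.

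Smooth muscle shares Pdgfrb and Mcam with pericytes, and 8 of its 10 markers were lower in Sp3-/- cells and 0 higher. Myh11 (-4.15 ± 0.67), Actg2 (-3.87 ± 0.57) and Cnn1 (-3.51 ± 0.45) changed most, and Acta2, the most abundant, fell by 2.29 on the log2 scale. All 8 remained lower with the suffix covariate. The summed level was 11760 to 25800 CPM in WT and 1994 to 4840 CPM in Sp3-/- libraries. In WT the order of libraries by this sum was also that of Mcam and of Rgs5, but not that of Pdgfrb. In Sp3-/- libraries it was that of Mcam, but not that of Pdgfrb or Rgs5. In Sp3+/- libraries it was that of none of these genes. WT 697-3 had the highest sum of WT and the highest Mcam and Rgs5. Sp3+/- 697-4 had the highest sum of its genotype (19490 CPM) and the highest Mcam (595 CPM), but the lowest Pdgfrb (257 CPM) and Rgs5 (2.03 CPM). Sp3-/- 685-1 likewise had the highest sum (4840 CPM) and Mcam (65.5 CPM) of its genotype, but the lowest Pdgfrb (79.8 CPM) and Rgs5 (0.981 CPM). Fewer cells of a type and less RNA per cell cannot be told apart in these bulk libraries, and the part of smooth muscle cells in the fall of Pdgfrb, Mcam and Rgs5 was not tested.

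Markers of other cell types moved as well. Of 10 macrophage markers 5 were higher and 0 lower, among them Lyz2 (2.73), C1qa (2.70) and C1qb (2.50), and their sum was 592 to 3177 CPM in WT and 3046 to 11330 CPM in Sp3-/- libraries. Single libraries of each genotype, WT 468-4, Sp3+/- 697-4 and Sp3-/- 685-1, had near-equal macrophage sums of 3177, 2976 and 3046 CPM. Pdgfb was there at 6.91, 5.16 and 12.8 CPM, Pdgfc at 76.0, 67.8 and 109 CPM and Pdgfrb at 238, 257 and 79.8 CPM. Within WT, Pdgfb and this sum had the same order of libraries. The sums were 3177, 865, 674 and 592 CPM in 468-4, 697-3, 685-2 and 697-1. The order was also the same within Sp3-/- libraries, with sums of 11330, 10200 and 3046 CPM in 697-2, 697-5 and 685-1. In Sp3+/- libraries the orders differed. Of 7 mesothelial markers tested 4 were higher and 0 lower (Msln 2.44, Upk1b 1.79, Bnc1 1.79), with a sum of 738 to 1728 CPM in WT and 2111 to 5997 CPM in Sp3-/- libraries, of which Upk3b was the most abundant gene. Of 8 epithelial markers tested 3 were higher (Cdh1 4.81, Epcam 3.12, Krt18 1.73), at sums of 31.0 to 61.6 and 61.9 to 183 CPM. The suffix covariate left 1 mesothelial gene (Wt1) and 1 epithelial gene (Cdh1) called by edgeR, and 0 macrophage genes, of which 8 had an unadjusted p below 0.05 and 7 were called by DESeq2 with the same covariate. The part of macrophage, mesothelial and epithelial cells in the levels of the ligands was not tested. Nor was it tested for the attenuators, the other listed pathway genes or the further pericyte and mural markers.

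Endothelial cells are a known source of Pdgfb. Of 9 endothelial markers tested 1 was higher (Esam 1.89) and 1 lower (Erg -3.30), 22.2% of them against 18.5% of all genes. Neither was called with suffix as a covariate (adjusted p = 0.0822 and 0.1966). Kdr, the most abundant, had a log2 fold change of -0.40 ± 0.46 (edgeR adjusted p = 0.5514). Their sum was 32.7 to 82.8 CPM in WT and 59.1 to 68.4 CPM in Sp3-/- libraries. The endothelial adhesion molecules Pecam1 and Cdh5 had mean levels of -0.77 and -0.46 log2 CPM in WT and 0.88 and 0.57 log2 CPM in Sp3-/- libraries, with fitted log2 fold changes of 0.02 ± 1.37 and -0.27 ± 1.41. Outside the list, Vwf had a log2 fold change of 2.22 ± 0.63 (edgeR adjusted p = 0.0478) and Cd34 of 1.02 ± 0.48 (adjusted p = 0.1683). The part of endothelial cells in the level of Pdgfb was not tested. Of 12 markers of lung mesenchyme 2 were higher (Dcn 1.32) and 4 lower (Twist2 -2.36, Foxf1 -1.61), and Col1a1, the most abundant, had a log2 fold change of -0.92 ± 0.47 (adjusted p = 0.1931). In the suffix fit Vim alone of these 6 genes remained called (-0.53, adjusted p = 0.0320), and Dcn, Twist2 and Foxf1 were not (adjusted p = 0.0590, 0.1125 and 0.1534), while Tcf21 was called there (2.51, adjusted p = 0.0484) but not without the covariate (0.83, adjusted p = 0.3639). Of the erythroid list only Alas2 could be tested (1.66), and the globin genes were listed at 0.

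**Figure D5:**
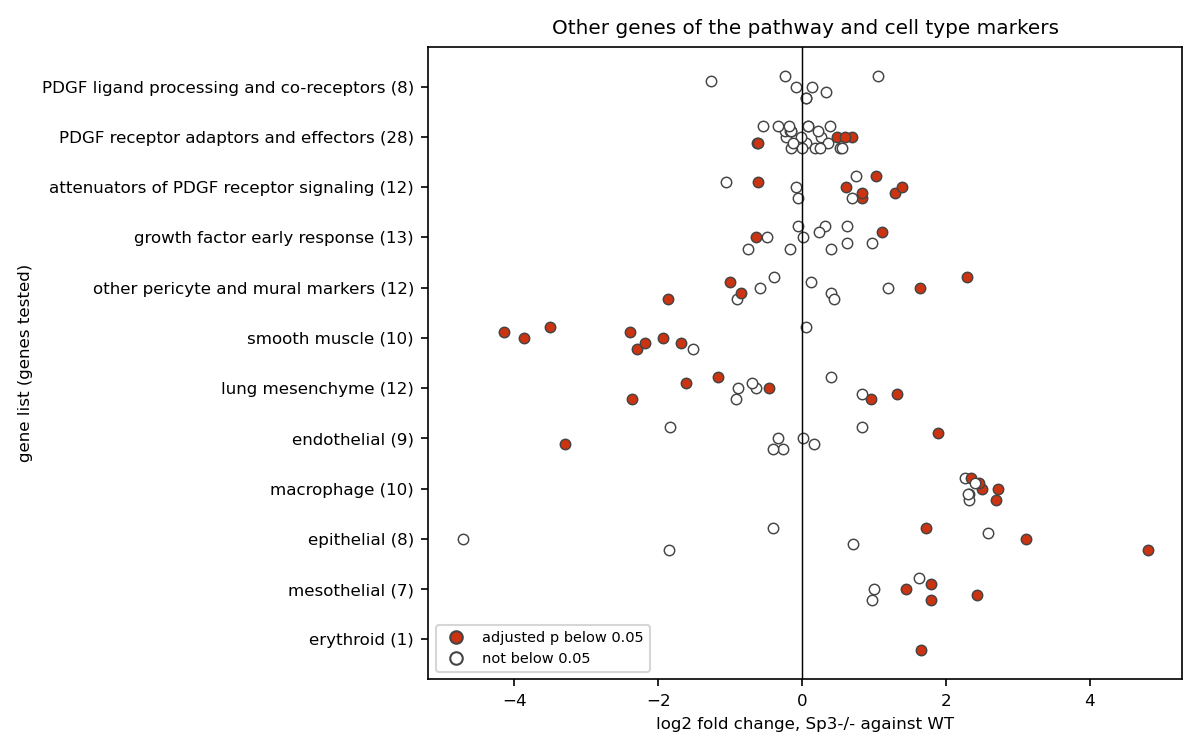
Log2 fold change in Sp3-/- against WT (x axis) of each tested gene of 12 lists (y axis, with the number tested); filled points have an adjusted p below 0.05. Smooth muscle genes lie to the left with 8 of 10 called, attenuators mostly to the right with 6 of 12 called higher, and pericyte and mural markers on both sides.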

How the data were processed

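RNA-seq of E15 fetal lung mesenchymal cells was read from 11 count files. Per the methods and the submitters' processing notes, the authors prepared TruSeq libraries, sequenced 50 bp single end reads, checked them with FastQC 0.10.1, aligned them to mm10 with STAR 2.4.5a and counted them with htseq-count. The deposited values are whole-number counts per gene symbol without normalization. Annotation version and strand setting are not given in the sources used here, so reads of overlapping or antisense genes cannot be told apart. The 5 tally rows, 38.4 to 40.9% of each library, entered neither library sizes nor tests.

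Tests were run in edgeR 4.0.16 in R 4.3.3 (TMM, estimateDisp, robust glmQLFit, glmQLFTest) on genes exceeding 1 CPM in 1 or more of the libraries fitted, with Benjamini-Hochberg adjustment over all genes and calls at an adjusted p below 0.05. Sp3-/- against WT used its 7 libraries, and contrasts with Sp3+/- used all 11. Library levels are CPM with TMM factors from 11 libraries, with a prior count of 2 on the log2 scale. SE are those implied by the test. Lengths are those of GENCODE vM39 canonical transcripts, and promoters are from RefSeq. The genes, lists and tests were chosen with earlier results of these data known. Named genes are the 10 members, Sp3, up to 3 called genes of each list with the largest change, the most abundant gene of each list of other cell types, and the 3 genes nearest to Pdgfra, Pdgfrb and Rgs5 among those with a mean above 2 log2 CPM. Outside this rule and after their values were seen, Rasa1, Lrig1, Notch3, Cd248, Wt1, Vim, Tcf21, Pecam1, Cdh5, Vwf and Cd34 were named too. Libraries of a genotype all differed beyond counting noise, with a chi-square per degree of freedom of at least 15.8. Intervals of CPM from reads would cover counting error only and are not given, and depth limits Kcnj8 and Rgs5 most.

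Alternatives were DESeq2 1.42.0, limma-voom 3.58.1 alone or with libraries of a first title number correlated, other scalings and filters, suffix as a covariate, the first number as a block, other sets of libraries and each library left out. The edgeR test was also run on simulated counts for Sp3-/- against WT. Of 200 genes changed, equal numbers of them by 2-fold and 4-fold, 129 were called, with 3 false calls among the others. The called genes were 44 of those changed 2-fold and 85 of those changed 4-fold, so that 2-fold changes were missed more often. The simulated counts held no effect of suffix, and 200 of 14025 genes is a smaller part than the 18.5% called in the data. The numbers of recovered genes and false calls therefore may not carry over to the data.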

Additional observations from a re-analysis of the deposited data

Results flagged for a closer look

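Of 20 groups of 4 libraries (10 genes in WT and in Sp3+/-), 3 held a library far from the others by Dixon's criterion, which chance meets in about 1 group in 20. Pdgfra was at 3.38 log2 CPM in Sp3+/- 697-4, the nearest library being at 6.53. Mcam was at 9.07 log2 CPM in WT 697-3, the nearest being at 8.02. Pdgfa was at 4.85 log2 CPM in Sp3+/- 468-3, the nearest being at 5.22. Without WT 697-3 the log2 fold change of Mcam in Sp3-/- against WT was -2.23 (edgeR adjusted p = 0.0189), against -2.58 with it. Sp3-/- groups of 3 libraries were not tested.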

How the results depend on the processing

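In Sp3-/- against WT, 6 of the 10 genes were called, 6 to 8 under DESeq2, limma-voom, other scalings, other filters and a single fit of 11 libraries, and 3 to 6 with each library left out. Pdgfrb, Pdgfd and Mcam kept their call whichever of the 7 libraries was left out, and only 3 were called without Sp3-/- 697-2. With the suffix of the file name as covariate, an alternative chosen after seeing the data, 1 was called (Pdgfd), and with libraries without a suffix only, which leaves WT 468-4 as the sole WT library, 0 of the 10 and 0 of 13752 genes were called. In Sp3-/- against Sp3+/-, 8 genes were called, 4 with suffix as a covariate, 0 with the suffix of file names and 5 to 8 with each library left out (5 without Sp3+/- 685-7 and without Sp3-/- 697-2). The cause of these changes was not tested. Calls among all genes in Sp3-/- against WT numbered 2599 with edgeR, 4297 with DESeq2, 3977 in a fit of 11 libraries, 1329 with the suffix covariate, 163 with that of file names and 282 to 4179 with a library left out.

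Pdgfra turned direction in Sp3-/- against WT, to 1.50 with suffix as a covariate, 1.20 with that of file names and 1.18 in libraries without a suffix, and in Sp3-/- against Sp3+/-, from -0.73 to 2.00 and 1.44 with the covariates. In Sp3+/- against WT no gene was called under any alternative, and values near 0 changed sign. With suffix as a covariate these were Cspg4 (-0.05), Pdgfc (0.04, and 0.12 with that of file names) and Pdgfrb (0.03), and with limma-voom and a consensus correlation Pdgfb (0.00). With each library left out they ranged from -0.02 to 0.77 for Cspg4, -0.06 to 0.11 for Pdgfa, -0.12 to 0.51 for Pdgfb, -0.10 to 0.11 for Pdgfc, -0.43 to 0.37 for Pdgfra and -0.23 to 0.12 for Pdgfrb.

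Of 14 pairs of libraries with the same first title number, 7 had correlated deviations above 0.1 (-0.63 to 0.35). Of 26 pairs with different numbers 10 did (-0.53 to 0.72), so the numbers were not taken as pairs. The highest value, 0.72, was that of WT 468-4 and Sp3+/- 697-4, the Sp3-carrying libraries without a suffix in the title. A relation of these deviations to suffix was not tested. All 5 pairs of number 685 were above 0.1 (0.11 to 0.30), as were 2 of 8 pairs of 697 and 0 of 1 of 468 (-0.42). With the number as a replicate block, 6 of the 10 genes were called in Sp3-/- against WT and 6 in Sp3-/- against Sp3+/-, among 4031 and 2956 of all genes, and Pdgfrb was at 0.07 in Sp3+/- against WT.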
